A study of Rattus norvegicus with 57 samples.

Results

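Liver RNA of male Han Wistar rats given 80 mg/kg methapyrilene for 8 days was compared with that of vehicle-treated rats killed on the same day. The comparison takes the 5 arrays whose titles name the 80 mg/kg liver of day 8 and the 5 whose titles name the control liver of day 8, 10 of the 57 arrays of the series, and covers every gene measured. Methapyrilene is an antihistamine once used as a sedative and known as a hepatotoxicant and liver carcinogen in the rat. Rats were 8 to 10 weeks old and were dosed by mouth every day with 0, 30 or 80 mg/kg in carboxymethylcellulose, so that all groups received the vehicle. The other arrays, of 30 mg/kg and of other days, entered the estimate of the spread and the comparisons with 30 mg/kg on day 8 and with 80 mg/kg on day 4. The design names 6 rats per group, and 5 arrays of each group of day 8 were analysed here. Each array was labelled as a biological replicate and was taken as 1 rat, and their small number limits how precise the values are. The RNA came from 10 mg of frozen liver and was hybridised to Affymetrix arrays, which read transcripts near their 3' end.

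Hepatocytes make most of the plasma proteins, clear ammonia through the urea cycle, make bile acids and hold the cytochromes P450 that convert drugs such as methapyrilene into reactive products. Damaged hepatocytes can answer with several known programmes. The transcription factor Nrf2 drives glutathione transferases and other detoxifying enzymes when electrophiles are present. Shortage of amino acids or stress in the mitochondria or the endoplasmic reticulum lowers general translation while the factor ATF4 is made and drives amino acid synthesis and transport. DNA damage activates p53, and loss of tissue is followed by division of the remaining hepatocytes.

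The values are MAS5 signals, a linear measure of hybridisation to a probe set, and were compared on the log2 scale with limma over 10725 genes. A gene is said to have risen or fallen at a Benjamini-Hochberg adjusted p under 0.05, and log2 differences are 80 mg/kg minus control, with their standard error. In all, 5446 genes (50.8%) passed, 3664 higher (34.2%) and 1782 lower (16.6%) at 80 mg/kg, and the median log2 difference over all genes was 0.15. Every array at 80 mg/kg lay above every control array in 2366 of the genes that rose (22.1% of those tested), and below in 1187 of those that fell (11.1%). A log2 difference above 1 was found in 715 genes that rose (6.67%), and one below -1 in 252 genes that fell (2.35%). The brightest signal was 7056 to 8413 on the arrays of 80 mg/kg, against 8697 to 10985 on control arrays, and the median signal was 17.6 to 19.5 at 80 mg/kg, against 15.7 to 16.4 in control (exact permutation p = 0.00794 each, the smallest that 5 against 5 arrays can give, adjusted p = 0.0119 over 6 measures). The direction of small differences therefore depended on how the arrays were brought to one scale. With quantile normalization the median over all genes moved to 0.03, with 2694 genes higher and 2186 lower, and with arrays shifted to a common median it moved to -0.07, with 1754 higher and 3004 lower. The ratio of the 3' to the 5' probe set of actin, a sign of RNA quality, was 4.17 to 4.75 at 80 mg/kg and 4.37 to 5.64 in control (exact permutation p = 0.0397, adjusted p = 0.0476), and with this ratio as a covariate 5178 genes passed. The liver marker albumin (Alb) had signals of 4530 to 5694 at 80 mg/kg and 4815 to 6678 in control.

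The largest rises joined enzymes of detoxification with genes that are barely read in normal liver. Gsta3, an alpha-class glutathione transferase, had signals of 1445, 1601, 1638, 1278 and 1611 at 80 mg/kg, against 75.9, 80.4, 60.7, 58.9 and 77.6 in control (log2 4.43 ± 0.28, adjusted p = 1.84e-17). The groups lay far apart, and each varied little within itself. Alpha-class transferases are close relatives, and signal shared between them cannot be separated on the array. Abcc3, an efflux pump that carries glucuronides and bile acids from the hepatocyte to the blood, read 231, 156, 212, 238 and 187 at 80 mg/kg, against 6.67, 6.69, 7.45, 5.27 and 9.46 in control (log2 4.86 ± 0.39, adjusted p = 1.22e-14). Gstm3, a mu-class transferase, reached 139 to 478 at 80 mg/kg, against 2.95 to 24.2 in control.

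Some of the genes that rose most were near the floor of the array in control livers, where a fold change has no firm denominator. Acot1, which splits long-chain acyl-CoA to free fatty acid and is a known target of PPAR alpha, read 352, 586, 355, 131 and 158 at 80 mg/kg, against 4.03, 3.38, 0.09, 3.76 and 0.45 in control. The ratio of the means on the log scale was 236, and 51.6 when 3.31, the 20th percentile of all signals, was first added to each value. Phgdh, the first enzyme of serine synthesis, read 264, 403, 310, 159 and 245 at 80 mg/kg, against 1.62, 15.1, 11.6, 0.7 and 15.8 in control, a 26.5-fold difference with the same addition. Cox6a2, the heart and muscle form of a cytochrome oxidase subunit, read 32.2, 47.5, 61.8, 38.1 and 33.9 at 80 mg/kg, against 4.41, 4.41, 1.16, 0.5 and 0.74 in control (8.49-fold with the addition). Gucy2c, the gut receptor of guanylin, stood at 34.1 to 78 at 80 mg/kg, against 0.32 to 6.05 in control. These genes were drawn from those whose groups do not overlap.

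A few of the large rises differed widely between rats of the same dose. Akr1b7, an aldo-keto reductase, read 86.7, 36.7, 52, 457 and 406 at 80 mg/kg, against 2.61, 0.61, 14.7, 24.1 and 1.11 in control. Gpx2, a glutathione peroxidase typical of gut epithelium, read 246, 23.3, 33.2, 242 and 96.3 at 80 mg/kg, against 8.08, 8.85, 4.91, 0.8 and 5.4 in control. Rats 2 and 3 were low at 80 mg/kg in both genes and rat 4 was high in both.

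**Figure D1:**
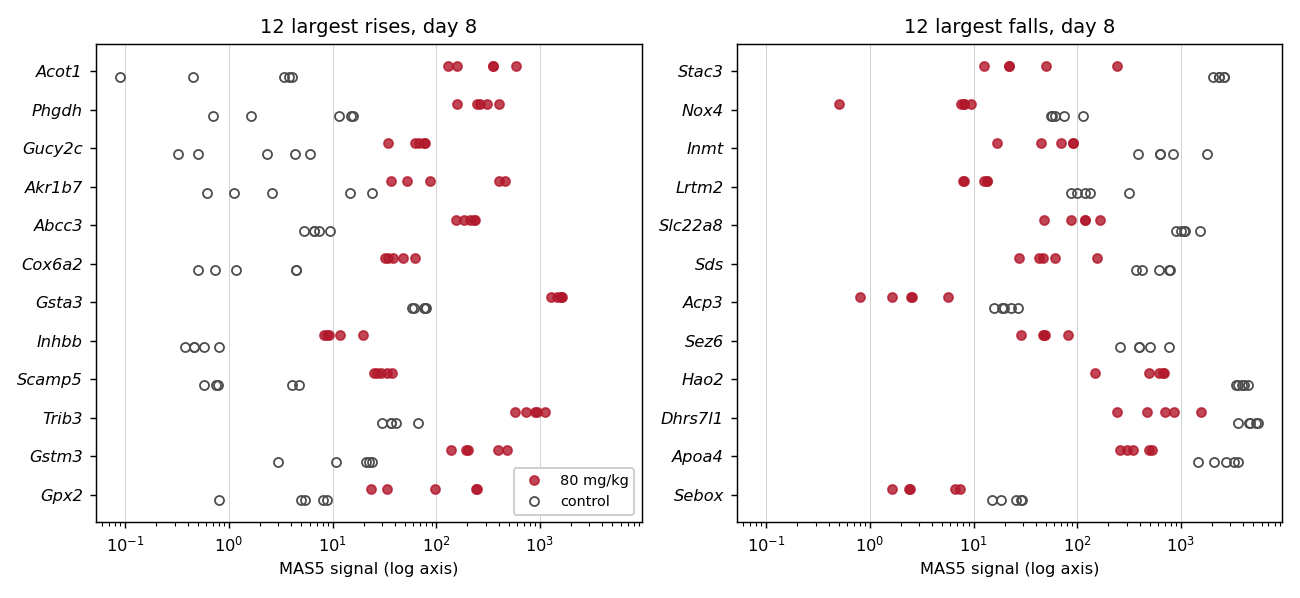
MAS5 signal (log axis) of the 12 genes with the largest rises (left) and the 12 with the largest falls (right) among genes whose groups do not overlap on day 8; each filled point is a rat at 80 mg/kg and each open point a control rat. Absence of overlap was a condition for the choice of genes, and Stac3 shows 1 rat at 80 mg/kg, at 245, above the other 4.

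The largest falls included genes that are strongly read in normal liver. Stac3, an adaptor known from the coupling of excitation to contraction in skeletal muscle, read 22.2, 49.8, 21.8, 12.7 and 245 at 80 mg/kg, against 2602, 2621, 2061, 2321 and 2310 in control (log2 -5.98 ± 0.41, adjusted p = 2.41e-16). Control rats agreed closely, and rat 5 at 80 mg/kg kept more signal than the other 4. Slc22a8, an uptake carrier of organic anions, read 120, 118, 88.1, 47.6 and 166 at 80 mg/kg, against 1083, 1098, 894, 1007 and 1530 in control (11.1-fold lower). Hao2, a peroxisomal oxidase of hydroxy acids, read 620, 679, 490, 150 and 681 at 80 mg/kg, against 3860, 3576, 4087, 3400 and 4413 in control (8.34-fold lower). In Slc22a8 and Hao2 the lowest value was that of rat 4. Inmt, a methyltransferase of indole amines, ran from 16.9 to 91.8 at 80 mg/kg, against 390 to 1775 in control, and Nox4, an oxidase that makes hydrogen peroxide, from 0.5 to 9.45 at 80 mg/kg, against 55.4 to 113 in control. Apoa4, an apolipoprotein of lipid-rich particles, stood at 257 to 522 at 80 mg/kg, against 1458 to 3518 in control.

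Among the most abundant transcripts the size of the difference depended on the scaling, and in the probe set used for Gc its direction did. Fabp1, the liver fatty acid binding protein, read 5381, 5687, 5359, 5918 and 7439 at 80 mg/kg, against 8169, 8330, 10177, 10697 and 9289 in control (log2 -0.65 ± 0.11, and -0.25 with quantile normalization). Fgg, the fibrinogen gamma chain, differed by -0.45 ± 0.11 on the deposited scale and by -0.04 with quantile normalization, where it did not pass. Gc, the vitamin D binding protein, differed by -0.34 ± 0.11 on the deposited scale and by 0.07 with quantile normalization, where it did not pass either. The other probe set of Gc fell by more on the deposited scale (log2 -1.11). Ephx1, the microsomal epoxide hydrolase, was the clearest rise at this level, at 4099 to 5296 for 80 mg/kg, against 2260 to 3032 in control (log2 0.89 ± 0.13, and 1.26 with quantile normalization).

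Genes of the amino acid response rose. Of 23 measured targets of ATF4, 15 rose and 0 fell, with a median of 1.2 against 0.15 over all genes, and 14 rose after quantile normalization, against 13 at a common median. Trib3, a pseudokinase, read 931, 1128, 889, 572 and 740 at 80 mg/kg, against 41, 36.8, 30, 36.4 and 66.4 in control (log2 4.36 ± 0.34, adjusted p = 5.49e-15). Fgf21, a hormone that the liver secretes under nutrient and mitochondrial stress, read 360, 476, 466, 224 and 267 at 80 mg/kg, against 33.6, 35.5, 16.8, 19.5 and 19.7 in control (log2 3.85 ± 0.36). Slc7a1, the carrier of arginine and lysine, read 88.1, 174, 153, 94.3 and 78.4 at 80 mg/kg, against 9.52, 12.3, 13.1, 9.56 and 13.7 in control (log2 3.28 ± 0.28). In each of the 3 genes rat 2 was the highest, and over the list rat 2 was the highest of its group in 12 of 23 genes. Atf4 itself, which is known to be controlled largely by translation, differed by 0.35 ± 0.12 (adjusted p = 0.0167), with signals of 1072 to 1667 at 80 mg/kg and 870 to 1296 in control, and did not pass at a common median (0.12), without 80 mg/kg rat 2 (0.26) or without control rat 4 (0.28).

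The aminoacyl-tRNA synthetases, which load amino acids onto tRNA, are partly under the same control. Of 19 measured, 14 rose and 1 fell, with a median of 0.44, and 9 rose and 2 fell at a common median. Sars1, for serine, read 498, 633, 579, 392 and 426 at 80 mg/kg, against 203, 219, 235, 224 and 207 in control (log2 1.19 ± 0.12). Gars1, for glycine, rose by 0.95 ± 0.10 and Iars1, for isoleucine, by 0.89 ± 0.13, although another probe set of Iars1 did not pass (0.12). Aars1, for alanine, differed by 0.0425 ± 0.076 (adjusted p = 0.669), and by 0.22 with quantile normalization, where it passed. Tars1, for threonine, was the member that fell, by 0.29 ± 0.12 (adjusted p = 0.0499), and it did not pass with quantile normalization (-0.23). Of 18 genes of serine and one-carbon metabolism 5 rose (27.8%, against 34.2% of all genes) and 8 fell (44.4%, against 16.6%). The median of -0.07 turned to 0.05 with quantile normalization. Mthfd2, a mitochondrial folate enzyme, reached 25.8 to 47.7 at 80 mg/kg, against 2.1 to 12.9 in control. Gnmt, which uses up methyl groups, read 1247, 2625, 1348, 982 and 2570 at 80 mg/kg, against 4535, 4589, 4127, 4933 and 4789 in control (log2 -1.50 ± 0.19), and Cbs, of cysteine synthesis from homocysteine, fell by 0.98 ± 0.12.

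The promoters of ATF4 targets can carry an amino acid response element, whose core is written here as TGATGNAA and was searched on both strands from 250 bases before to 50 bases after the first listed start of each gene (RefSeq, GRCr8). It was found in 6 of 21 promoters of the ATF4 list and 7 of 17 of the synthetase list, against 2.08% of the promoters of all genes tested and 3.82% of all 27457 promoters. The 4 windows below belong to members described above that rose and hold the motif, and they are shown because the motif is the feature these genes share; capitals mark the match, which lies 143, 21, 30 and 24 bases before the start in the order printed. They are chr1:105221327-105221626 (minus strand), chr3:161275484-161275783 (minus strand), chr12:11664238-11664537 (plus strand) and chr17:15193603-15193902 (minus strand).
Fgf21: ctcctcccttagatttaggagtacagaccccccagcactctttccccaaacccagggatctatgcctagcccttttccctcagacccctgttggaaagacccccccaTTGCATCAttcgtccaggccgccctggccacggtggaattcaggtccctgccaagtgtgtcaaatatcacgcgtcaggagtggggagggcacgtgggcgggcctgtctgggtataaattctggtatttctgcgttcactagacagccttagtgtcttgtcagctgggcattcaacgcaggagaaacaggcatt
Trib3: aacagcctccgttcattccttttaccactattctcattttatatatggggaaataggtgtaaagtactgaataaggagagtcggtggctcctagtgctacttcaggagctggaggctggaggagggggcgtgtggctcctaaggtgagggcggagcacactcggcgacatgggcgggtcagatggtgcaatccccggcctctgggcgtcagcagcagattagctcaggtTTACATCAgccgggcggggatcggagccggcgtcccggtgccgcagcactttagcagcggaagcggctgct
Slc7a1: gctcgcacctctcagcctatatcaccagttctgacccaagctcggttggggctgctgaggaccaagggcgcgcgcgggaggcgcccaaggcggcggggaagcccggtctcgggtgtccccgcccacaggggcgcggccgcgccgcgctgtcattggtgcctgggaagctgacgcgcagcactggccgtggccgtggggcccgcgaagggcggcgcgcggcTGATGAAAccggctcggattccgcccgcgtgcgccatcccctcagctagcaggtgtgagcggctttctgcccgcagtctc
Iars1: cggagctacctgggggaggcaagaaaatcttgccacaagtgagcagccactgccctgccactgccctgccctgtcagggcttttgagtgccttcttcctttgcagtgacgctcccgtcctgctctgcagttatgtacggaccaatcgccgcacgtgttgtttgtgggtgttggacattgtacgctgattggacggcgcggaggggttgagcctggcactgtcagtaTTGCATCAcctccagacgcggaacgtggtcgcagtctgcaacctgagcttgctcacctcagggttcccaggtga
The match describes the letters only, and members with it did not all rise. Aars1 did not pass and Tars1 fell, and neither Cars1 (-0.17, adjusted p = 0.299) nor Chac1 of the ATF4 list (-0.06, adjusted p = 0.928) passed; these last were picked after their values were seen.

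Genes of the endoplasmic reticulum mostly fell. Of 22 chaperones and degradation genes, 1 rose and 13 fell, with a median of -0.29, and 4 rose and 10 fell with quantile normalization. Hspa5, the main chaperone of this compartment, read 4381, 4041, 3952, 4147 and 3865 at 80 mg/kg, against 3695, 4111, 4366, 4055 and 4197 in control. The groups overlapped (log2 -0.00197 ± 0.075, adjusted p = 0.986). Hspa5 passed as higher with quantile normalization (0.32) but as lower at a common median (-0.225). Sdf2l1, a partner of that chaperone, read 317, 332, 264, 371 and 391 at 80 mg/kg, against 575, 686, 834, 777 and 677 in control (log2 -1.08 ± 0.13). Sel1l, of protein degradation, fell by 0.87 ± 0.09 and Pdia4, a disulfide isomerase, by 0.86 ± 0.091. In the mitochondria, 9 of 14 chaperones and proteases rose and 1 fell (median 0.24), with 6 and 3 at a common median. Lonp1, a protease of the matrix, read 708, 922, 739, 570 and 729 at 80 mg/kg, against 392, 393, 431, 440 and 404 in control (log2 0.82 ± 0.08). Afg3l2, a protease of the inner membrane, rose by 0.76 ± 0.10, and Clpx, the unfoldase of another matrix protease, fell by 0.72 ± 0.10.

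Detoxification was remodelled within families. Of 19 core genes of the Nrf2 response, 7 rose (36.8%, against 34.2% of all genes) and 1 fell. The median was 0.19, with 12 higher and a median of 0.43 under quantile normalization, but 6 higher, 3 lower and a median of -0.03 at a common median. Srxn1, which repairs oxidised peroxiredoxins, read 293, 318, 329, 436 and 192 at 80 mg/kg, against 87.5, 106, 71.2, 75.4 and 79.4 in control (log2 1.87 ± 0.20). Hmox1, which breaks down haem, rose by 1.0 ± 0.18. Nqo1, a quinone reductase often used as the marker of Nrf2, read 444, 733, 389, 616 and 316 at 80 mg/kg, against 429, 489, 433, 433 and 420 in control, and the groups overlapped (log2 0.12 ± 0.38, adjusted p = 0.821). Of 21 glutathione transferases 8 rose (38.1%, against 34.2% of all genes) and 6 fell, with a median of 0.13. Quantile normalization gave 13 higher and 3 lower with a median of 0.40, and a common median gave 4 higher and 8 lower with a median of -0.09. Gstp1, a pi-class transferase known as a marker of early liver lesions in the rat, read 416, 1316, 1072, 1336 and 805 at 80 mg/kg, against 229, 242, 227, 180 and 202 in control (log2 2.09 ± 0.31). Gstm7, of the mu class, moved the other way, at 143, 222, 148, 96.9 and 341 for 80 mg/kg, against 655, 715, 602, 563 and 500 in control (log2 -1.80 ± 0.23). Aldo-keto reductases and aldehyde dehydrogenases moved both ways. Of 15 members 7 were higher (46.7%, against 34.2% of all genes) and 5 lower (33.3%, against 16.6%). Akr7a3, a reductase of aflatoxin aldehyde, read 4244, 3631, 3952, 3956 and 3657 at 80 mg/kg, against 729, 978, 564, 799 and 1021 in control. Aldh1a1, of retinal oxidation, stood at 2649 to 3244 at 80 mg/kg, against 187 to 618 in control. Aldh1b1, a mitochondrial form, fell by 2.24 ± 0.41.

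Cytochromes P450 and their receptors fell, 16 of 24 lower and 1 higher with a median of -0.48, and 12 lower and 2 higher with quantile normalization. Cyp2c11, the chief male-specific P450 of rat liver, read 1896, 2614, 1731, 1548 and 2875 at 80 mg/kg, against 5819, 5788, 6516, 6665 and 6131 in control (log2 -1.58 ± 0.22, adjusted p = 3.75e-08). Cyp2c12, its female-specific relative, was the member that rose, at 3464, 2830, 3353, 3834 and 2409 for 80 mg/kg, against 157, 207, 99.6, 357 and 212 in control (log2 4.05 ± 0.51, adjusted p = 4.98e-09). In these male livers every rat at 80 mg/kg lay above every control rat in Cyp2c12. Members of this family share sequence, so that signal from a paralog cannot be separated. Cyp2c7 differed between rats at 80 mg/kg, at 1589, 1380, 2202, 4285 and 4803, against 5473, 5558, 6942, 7406 and 6435 in control. Of 13 glucuronosyl- and sulfotransferases 6 fell (46.2%, against 16.6% of all genes) and 2 rose (15.4%, against 34.2%). Their median of -0.15 turned to 0.07 with quantile normalization. The clearest fall was that of Sult1c3, a sulfotransferase, with 473 to 1879 at 80 mg/kg, against 3544 to 4670 in control.

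Transport and synthesis of bile acids changed. Of 17 hepatocyte transporters 6 rose (35.3%, near the 34.2% of all genes) and 9 fell (52.9%, against 16.6% of all genes). Slc10a1, the main carrier of bile acids into the hepatocyte, read 1924, 1769, 1464, 1831 and 2832 at 80 mg/kg, against 4416, 4669, 4761, 5220 and 4804 in control (log2 -1.31 ± 0.16). Abcc4, an efflux pump that rises in cholestasis, read 141, 148, 171, 98 and 88 at 80 mg/kg, against 40.8, 31.4, 25.2, 28.8 and 39.8 in control (log2 1.94 ± 0.19). Of 11 genes of bile acid synthesis, 8 fell and 0 rose (median -0.74). Acox2 and Amacr, which shorten the side chain in peroxisomes, fell by 1.06 ± 0.12 and 1.16 ± 0.14. Cyp7a1, the rate-limiting enzyme, read 2839, 3025, 3120, 1554 and 1742 at 80 mg/kg, against 2387, 1681, 2962, 3013 and 2499 in control, with overlap (log2 -0.0606 ± 0.28, adjusted p = 0.874).

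Genes of amino acid breakdown fell. Of 31 genes of the urea cycle and amino acid breakdown, 24 fell and 2 rose, with a median of -0.51, and 19 fell with quantile normalization. Sds, which deaminates serine, read 60.8, 42.9, 27.2, 47.1 and 155 at 80 mg/kg, against 368, 422, 764, 793 and 616 in control (log2 -3.35 ± 0.51). Hal, which deaminates histidine, read 226, 357, 222, 343 and 420 at 80 mg/kg, against 1134, 1290, 1310, 1250 and 855 in control (log2 -1.93 ± 0.23). Oat, an ornithine aminotransferase, fell by 1.66 ± 0.19. Asl, of the urea cycle, was an exception, at 1560, 1819, 1583, 1538 and 1370 for 80 mg/kg, against 846, 763, 895, 877 and 963 in control (log2 0.86 ± 0.12). Over the list, rat 5 at 80 mg/kg had the highest signal of its group in 21 of 31 genes and rat 4 the lowest in 16.

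In carbohydrate and lipid metabolism, 8 of 16 glucose, glycogen and fructose genes fell and 2 rose. Pklr, the liver pyruvate kinase, read 170, 101, 151, 230 and 158 at 80 mg/kg, against 539, 742, 681, 549 and 430 in control (log2 -1.88 ± 0.23), and Khk, which starts fructose use, fell by 0.99 ± 0.10. Fatty acid synthesis fell in 9 of 14 genes and rose in 1. Thrsp, a lipogenic regulator, read 821, 1275, 1224, 1461 and 665 at 80 mg/kg, against 4288, 4621, 5234, 3945 and 3150 in control (log2 -2.0 ± 0.29). Srebf1, the transcription factor of the pathway, fell by 1.25 ± 0.24. Of 29 genes of fatty acid oxidation and PPAR alpha, 11 rose (37.9%, near the 34.2% of all genes) and 8 fell (27.6%, against 16.6%). The median of 0.07 turned to -0.15 at a common median, with 8 higher and 13 lower. Acot2, the mitochondrial relative of Acot1, read 1723, 2103, 1794, 1061 and 1342 at 80 mg/kg, against 317, 280, 262, 263 and 284 in control (log2 2.48 ± 0.22). Hadh, a dehydrogenase of the beta-oxidation spiral, fell by 0.98 ± 0.08. Of 41 subunits of the respiratory chain 26 fell and 5 rose, with a median of -0.20 that turned to 0.01 with quantile normalization, where 6 fell and 10 rose. Sdha, of complex II, read 1388, 1324, 1301, 1270 and 1508 at 80 mg/kg, against 1837, 1871, 2025, 2047 and 1976 in control (log2 -0.52 ± 0.056).

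**Figure D2:**
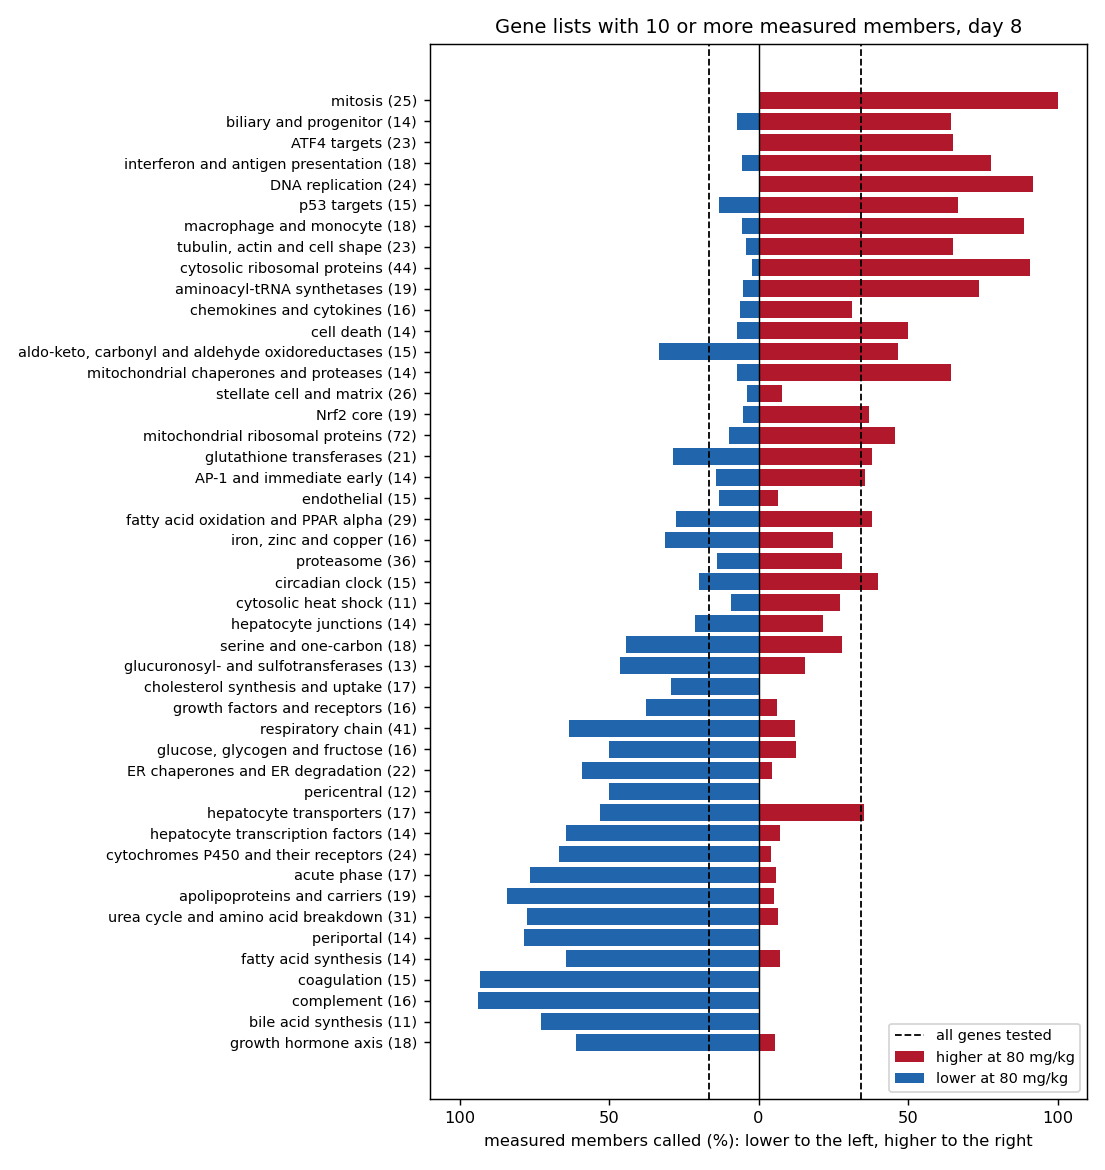
Share of measured members called higher (red, to the right) or lower (blue, to the left) at 80 mg/kg on day 8 for each list with at least 10 measured genes, the number measured in parentheses and lists ordered by median log2 difference; dashed lines are the shares over all genes, 34.2% and 16.6%. All 25 mitosis genes were higher, while 15 of 16 complement and 14 of 15 coagulation genes were lower.

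Genes of plasma proteins fell together. Of 15 coagulation genes 14 fell and 0 rose (median -0.59), and every rat at 80 mg/kg lay below every control rat in 14 of them, against 11.3% of all genes. With quantile normalization 11 fell, with a median of -0.31. F10, coagulation factor X, read 1270, 1161, 1159, 1228 and 1540 at 80 mg/kg, against 2324, 2292, 2574, 2686 and 2460 in control (log2 -0.96 ± 0.077, adjusted p = 1.07e-14). F2, prothrombin, fell by 0.53 ± 0.087. Of 16 complement genes 15 fell and 0 rose, with a median of -0.63, and 14 fell with quantile normalization. C6, of the membrane attack complex, read 130, 176, 186, 206 and 371 at 80 mg/kg, against 965, 892, 984, 1021 and 911 in control (log2 -2.25 ± 0.29). C3, the central component, fell by 0.41 ± 0.12 and differed by 0.02 with quantile normalization. Rat 5 had the highest complement signal at 80 mg/kg in 13 of the 16 genes.

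Carriers and acute phase proteins behaved alike in count, as 16 of 19 apolipoproteins and carriers fell and 1 rose (median -0.51), or 10 and 3 with quantile normalization (median -0.11). Apom, a lipoprotein component, stood at 859 to 1321 for 80 mg/kg, against 2205 to 2771 in control. Alb differed by -0.20 ± 0.14 (adjusted p = 0.245). It passed as higher with quantile normalization (0.21) but as lower at a common median (-0.425). Of 17 acute phase genes 13 fell and 1 rose. A2m, a protease trap that marks inflammation in the rat, read 22.1, 23.4, 26.1, 21.3 and 23 at 80 mg/kg, against 150, 114, 370, 85.3 and 106 in control (log2 -2.61 ± 0.38). Lcn2, an iron-scavenging protein, was the member that rose, at 113, 76.1, 138, 161 and 103 for 80 mg/kg, against 33.9, 67.2, 44.4, 36.1 and 40.1 in control (log2 1.41 ± 0.25).

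The growth hormone axis, which sets sex differences in rat liver through the rhythm of the hormone, fell in 11 of 18 genes and rose in 1, with a median of -0.76. Ghr, the receptor, read 1108, 1185, 1079, 1097 and 1528 at 80 mg/kg, against 2598, 2299, 2089, 2197 and 2337 in control (log2 -0.95 ± 0.08). Obp3, a urinary globulin of male rats, read 1840, 2412, 3021, 750 and 2440 at 80 mg/kg, against 7711, 7156, 6403, 8399 and 7972 in control (log2 -1.98 ± 0.35). Igfbp2, a binding protein of insulin-like growth factors, was the member that rose, at 205, 156, 193, 201 and 175 for 80 mg/kg, against 24.9, 27.2, 98.6, 22.2 and 50 in control. Among growth factors, 6 of 16 genes fell (37.5%, against 16.6% of all genes) and 1 rose (6.25%, against 34.2%). Inhba, the beta A subunit of activin, read 67.1, 78, 82.7, 71.1 and 165 at 80 mg/kg, against 614, 636, 468, 647 and 529 in control (log2 -2.72 ± 0.19, adjusted p = 4.06e-16). Inhbb, the beta B subunit, was near the floor of the array in control and rose, with 8.25 to 19.5 at 80 mg/kg, against 0.38 to 0.81 in control (3.73-fold after the addition).

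Transcription factors that define the hepatocyte fell in 9 of 14 cases and rose in 1. Hnf4a read 1851, 2013, 2006, 2060 and 2018 at 80 mg/kg, against 2448, 2747, 2780, 2779 and 2466 in control (log2 -0.41 ± 0.08, adjusted p = 2.79e-05), although 2 other probe sets of Hnf4a did not pass, nor did this one with quantile normalization (-0.14). Cebpa fell by 0.69 ± 0.16. Zonal markers fell at both ends of the lobule, 11 of 14 periportal and 6 of 12 pericentral genes, with 0 rising in either list. Glul, the glutamine synthetase of the last pericentral hepatocytes, read 1137, 1476, 1142, 1346 and 1150 at 80 mg/kg, against 1828, 1880, 1549, 1411 and 1958 in control (log2 -0.46 ± 0.14), with overlap, and neither 2 other probe sets of Glul nor this one with quantile normalization (-0.27) passed. Rgn, a calcium-binding pericentral protein, fell by 1.15 ± 0.12. Gjb1, the main gap junction protein of hepatocytes, fell by 0.92 ± 0.10, while Ocln, of tight junctions, rose by 0.73 ± 0.092.

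Cell division genes rose as a block. The 25 mitosis genes measured, of 27 listed, all rose, with a median of 2.19, and in 23 of them the groups did not overlap, against 22.7% of all genes with every rat at 80 mg/kg above control. All 25 also rose at a common median and with quantile normalization. Mki67, the antigen of cycling cells, read 150, 74.5, 114, 409 and 71.7 at 80 mg/kg, against 12.4, 16.6, 27.8, 22.5 and 34.7 in control (log2 2.61 ± 0.41, adjusted p = 6.71e-07). Plk1, a mitotic kinase, read 59.7, 25.3, 39.3, 145 and 20.4 at 80 mg/kg, against 1.89, 3.11, 13, 1.37 and 25 in control (log2 3.21 ± 0.75, adjusted p = 0.000336), and rat 5 at 80 mg/kg fell within the control range. Ttk, a kinase of the spindle checkpoint, read 64.2, 15.3, 48.7, 176 and 12.4 at 80 mg/kg, against 4.51, 0.32, 6.23, 4.44 and 15 in control, again with overlap. Rat 4 at 80 mg/kg had the highest signal of its group in 25 of 25 mitosis genes and in 22 of 24 replication genes, and rat 5 the lowest in 20 and 14. The median mitosis gene stood 3.70 above the control mean in rat 4 on the log2 scale and 1.32 in rat 5, and leaving out 1 array at a time left 24 to 25 of the 25 called.

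Replication rose as well, 22 of 24 genes with 0 lower and a median of 0.90. With quantile normalization 18 rose (median 0.74), as did 18 at a common median (0.68), and 17 to 23 rose without 1 array at a time. Pcna, the clamp of DNA polymerase, read 595, 504, 525, 988 and 425 at 80 mg/kg, against 385, 363, 308, 311 and 381 in control (log2 0.74 ± 0.11). Ccnd1, the cyclin that takes cells into the cycle, read 557, 519, 677, 680 and 363 at 80 mg/kg, against 127, 135, 103, 106 and 130 in control (log2 2.19 ± 0.23). Of 15 p53 targets 10 rose and 2 fell (median 0.89). Cdkn1a, which blocks the cycle, read 242, 335, 282, 308 and 251 at 80 mg/kg, against 100, 58, 78.5, 118 and 105 in control (log2 1.66 ± 0.21). Gadd45a, a growth arrest gene, stood at 358 to 543 at 80 mg/kg, against 55.2 to 236 in control. Ribosomal proteins of the cytosol rose in 40 of 44 genes and fell in 1, with a median of 0.45, and 22 rose at a common median. Rpl14 read 2154, 2401, 2330, 2009 and 1924 at 80 mg/kg, against 1244, 1256, 1437, 1284 and 1236 in control (log2 0.74 ± 0.078).

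Promoters of mitosis genes are known for pairing a CCAAT box with the cell cycle homology region, whose core is TTTGAA. In the same window and on both strands, TTTGAA was found in 15 of 20 mitosis promoters, against 11.6% of the promoters of all genes tested, and CCAAT in 17 of 20, against 38.1%. Of 21 replication promoters 1 held TTTGAA and 13 held CCAAT. The 3 windows below belong to the mitosis genes described above and show both motifs in capitals. They are chr1:186147408-186147707 (plus strand), chr8:93634389-93634688 (plus strand) and chr1:199952544-199952843 (minus strand).
Plk1: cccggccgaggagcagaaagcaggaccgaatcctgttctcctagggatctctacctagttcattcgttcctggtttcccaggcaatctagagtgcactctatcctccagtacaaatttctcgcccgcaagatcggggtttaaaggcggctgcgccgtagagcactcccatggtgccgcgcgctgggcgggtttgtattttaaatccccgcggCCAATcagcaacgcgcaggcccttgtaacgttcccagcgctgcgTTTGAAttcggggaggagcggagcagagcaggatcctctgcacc
Ttk: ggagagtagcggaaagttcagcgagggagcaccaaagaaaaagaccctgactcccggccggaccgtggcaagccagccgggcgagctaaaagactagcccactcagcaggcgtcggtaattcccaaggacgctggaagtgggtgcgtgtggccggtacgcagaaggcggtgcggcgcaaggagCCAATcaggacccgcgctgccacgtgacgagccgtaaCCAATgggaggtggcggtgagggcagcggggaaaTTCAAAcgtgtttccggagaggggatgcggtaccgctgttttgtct
Mki67: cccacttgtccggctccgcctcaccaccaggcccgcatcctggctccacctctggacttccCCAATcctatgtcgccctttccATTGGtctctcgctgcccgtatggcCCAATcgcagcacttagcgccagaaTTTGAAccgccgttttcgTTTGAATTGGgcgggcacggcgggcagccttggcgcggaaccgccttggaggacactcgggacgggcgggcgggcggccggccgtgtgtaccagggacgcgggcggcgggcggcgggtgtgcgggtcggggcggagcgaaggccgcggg
The matches are short and occur by their letters alone in many promoters.

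**Figure D3:**
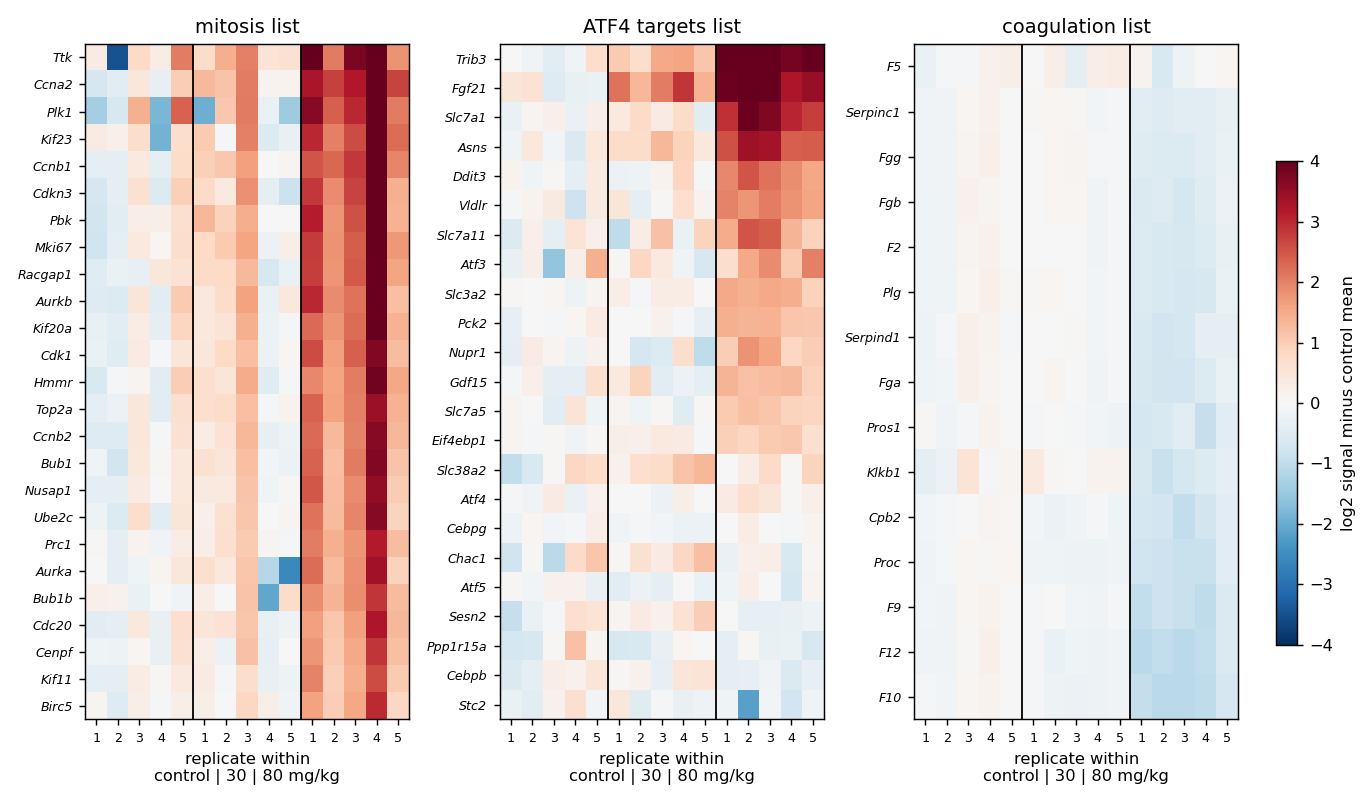
Log2 signal minus the mean of the control rats for the mitosis, ATF4 target and coagulation lists on day 8, with a column for each rat in the order control, 30 and 80 mg/kg and genes ordered by their difference at 80 mg/kg. Rat 4 at 80 mg/kg is the darkest column of the mitosis list, and the rats at 30 mg/kg resemble control in the coagulation list.

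Genes of other liver cells rose unevenly. In RNA of whole liver, more cells of a type and more RNA per cell cannot be told apart. Of 18 macrophage and monocyte genes 16 rose and 1 fell (median 0.73), and the summed signal of the list was 7489 to 8709 at 80 mg/kg, against 4688 to 6646 in control. Gpnmb, a protein of lipid-laden and phagocytic macrophages, read 505, 359, 514, 922 and 385 at 80 mg/kg, against 117, 89.6, 104, 66.2 and 129 in control (log2 2.36 ± 0.25). Mmp12, the macrophage elastase, read 99.8, 46.6, 67.3, 199 and 82.8 at 80 mg/kg, against 4.98, 10.3, 8.37, 11.4 and 19.2 in control (log2 3.15 ± 0.38). Cd68, a general macrophage marker, rose by 0.70 ± 0.14, and Cd14, a receptor of bacterial lipopolysaccharide that hepatocytes also make, fell by 0.73 ± 0.13. Of 9 lymphocyte genes of T and NK cells 3 rose (33.3%, a share near the 34.2% of all genes) and 1 did so with quantile normalization, with a summed signal of 210 to 251 at 80 mg/kg and 156 to 181 in control, and 10 members were below the filter on low signals. Of 4 mast cell genes 2 rose. Mcpt1, a mast cell protease, read 20.7, 9.89, 25.7, 38.5 and 47.4 at 80 mg/kg, against 1.4, 2.09, 13.9, 2.27 and 2.38 in control, while Cpa3, another, ran from 12.5 to 25 at 80 mg/kg and from 14.2 to 36.7 in control. S100a9, the neutrophil gene measured, ran from 15.3 to 30.8 at 80 mg/kg and from 19.3 to 44.2 in control.

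Biliary and progenitor genes rose in 9 of 14 cases and fell in 1 (median 1.25), with a summed signal of 1071 to 1465 at 80 mg/kg, against 524 to 735 in control. The defining biliary keratin did not pass: Krt19 read 33.6, 54.1, 51.9, 35 and 69.5 at 80 mg/kg, against 36.3, 51.1, 38.1, 31.8 and 56.2 in control (log2 0.17 ± 0.21, adjusted p = 0.507). Ggt1, a glutathione-cleaving enzyme of bile duct and fetal liver, read 98, 108, 91.2, 67.1 and 112 at 80 mg/kg, against 15.8, 21.6, 11.8, 13.8 and 21.5 in control (log2 2.51 ± 0.28). Cldn7, a tight junction protein of epithelia, stood at 23.4 to 34.8 at 80 mg/kg, against 1.05 to 6.83 in control. Afp, the fetal liver protein, fell by 0.41 ± 0.14. Matrix and stellate cell genes moved little, 2 of 26 higher and 1 lower, or 5 higher without 80 mg/kg rat 2 or control rat 5, with a summed signal of 3640 to 5114 at 80 mg/kg and 3365 to 4880 in control. Col1a1, the main fibrillar collagen, read 71.4, 39.4, 66.6, 66.9 and 76.7 at 80 mg/kg, against 34.3, 60, 96.9, 39.4 and 52.1 in control (adjusted p = 0.486). Timp1, an inhibitor of matrix proteases, rose by 1.2 ± 0.29. Endothelial genes gave 1 higher (6.67%, against 34.2% of all genes) and 2 lower (13.3%, against 16.6%) of 15. They gave 1 and 4 with quantile normalization and 0 lower without control rat 3. Pecam1 ran from 54.5 to 59.8 at 80 mg/kg and from 34.5 to 62.4 in control.

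Interferon and antigen presentation genes rose in 14 of 18 cases and fell in 1 (median 1.03). Mx2, an interferon-induced GTPase, read 84.1, 149, 152, 83.7 and 242 at 80 mg/kg, against 27.8, 27.3, 40.5, 65.5 and 17.6 in control (log2 2.02 ± 0.48). RT1-Ba, a chain of the rat class II complex, read 727, 736, 683, 519 and 552 at 80 mg/kg, against 320, 174, 191, 126 and 263 in control (log2 1.64 ± 0.49). Mx2 and RT1-Ba each had 1 other probe set that did not pass, and class II genes resemble each other in sequence. The summed signals of the macrophage, T and NK and mast cell lists were also higher at 80 mg/kg without overlap, the last over 4 genes. The sum of the 3 B cell genes ran from 103 to 170 at 80 mg/kg and from 28 to 141 in control. The part of these lists in this result was not tested. Cxcl10, an interferon-induced chemokine, rose by 1.51 ± 0.35. Of 23 cytoskeletal and cell shape genes 15 rose and 1 fell (median 0.67). Tubb6, a tubulin, read 399, 228, 371, 754 and 175 at 80 mg/kg, against 25.1, 38.6, 55.9, 20.3 and 70.1 in control (log2 3.16 ± 0.36), with rat 4 again the highest. Tnfrsf12a, the receptor of the cytokine TWEAK, rose by 1.94 ± 0.24, and 7 of 14 cell death genes rose with 1 lower, or 4 and 1 with quantile normalization.

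The effect was then set against that of the lower dose. On the same day, 4946 genes (46.1%) differed between 80 and 30 mg/kg, 3384 higher (31.6%) and 1562 lower (14.6%) at 80 mg/kg, whereas 25 genes (0.233%) differed between 30 mg/kg and the same control arrays, 19 higher (0.177%) and 6 lower (0.0559%). Gsta3 ran from 311 to 676 at 30 mg/kg, between control and 80 mg/kg. Abcc3 ran from 9.24 to 30.4 at 30 mg/kg, and its lowest value lay within the control range. Akr1b7 was already high at the lower dose, from 29.4 to 1330 at 30 mg/kg, and a difference between 80 and 30 mg/kg did not pass (log2 -0.83 ± 1.0, adjusted p = 0.524). Stac3 ran from 1934 to 2555 at 30 mg/kg, overlapping control, and was lower at 80 mg/kg by a log2 difference of -5.87 ± 0.41. Cyp2c12 ran from 176 to 1229 at 30 mg/kg. Of the 25 mitosis genes, all were higher at 80 than at 30 mg/kg. At 30 mg/kg against control 0 of them passed, where 0.233% of all genes did. Their median log2 difference there was 0.41, against 0.0 over all genes. Hao2 was intermediate, at 1787 to 3119 for 30 mg/kg.

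**Figure D4:**
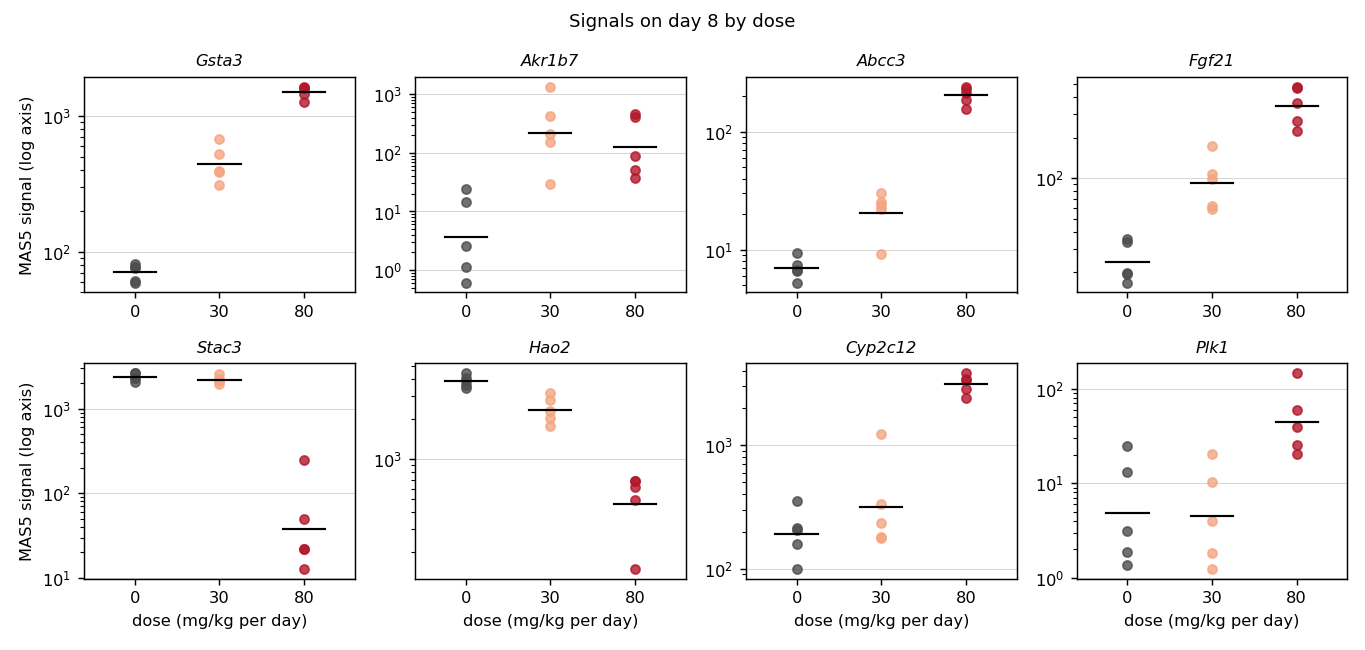
MAS5 signal (log axis) of 8 genes on day 8 at 0, 30 and 80 mg/kg, with a point for each rat and a bar at the mean of the log signals. Gsta3 and Hao2 at 30 mg/kg lie between the other groups, while Stac3 at 30 mg/kg overlaps control.

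The effect on day 8 was also set against that of day 4, which has its own control rats and 4 arrays at 80 mg/kg. On day 4, 2952 genes (27.5%) passed, 1966 higher (18.3%) and 986 lower (9.19%), of which 2475 also passed on day 8, 83.8% of the day 4 genes and 45.4% of the day 8 genes, and 2462 of them in the same direction. The difference between the days passed for 717 genes (6.69%), 338 higher and 379 lower on day 8, and it did so for 419 genes that passed on day 8 alone. Stac3 differed from control by -5.98 on day 8 and by -2.89 on day 4 (difference -3.09 ± 0.6, adjusted p = 0.00234). Cox6a2 differed by 4.76 on day 8 and by 1.10 on day 4 (adjusted p of the difference = 0.02). Cyp2c11 differed by -1.58 on day 8 and by -0.24 on day 4 (adjusted p of the difference = 0.00899), and Cyp2c12 by 4.05 on day 8 and by 1.58 on day 4 (adjusted p = 0.0371).

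Plasma protein genes differed between the days on the deposited scale, but not under each alternative. Of 15 coagulation genes 12 were lower on day 8 than on day 4 relative to control, against 3.53% of all genes, with a median difference of -0.47. That count was 2 with quantile normalization, where the median was -0.11, 1 with the actin ratio as a covariate, and 4 to 12 without 1 array at a time. It was 4 without 80 mg/kg day 8 rat 3, 7 without rat 1 of that group, 7 and 5 without control day 8 rats 3 and 4, 4 and 5 without 80 mg/kg day 4 rats 2 and 4, and 5 and 6 without control day 4 rats 1 and 2. Macrophage genes gave 9 of 18 higher on day 8, against 3.15% of all genes, with a median of 0.63. Here the count was 5 after quantile normalization, 4 with only the groups compared, 1 at a common median or with the actin ratio as a covariate, and 0 to 9 without 1 array at a time, while the median ran from 0.54 to 0.72 in these settings. It was 2 and 1 without 80 mg/kg day 8 rats 3 and 4, 5 and 1 without control day 8 rats 2 and 4, 3, 0, 5 and 5 without 80 mg/kg day 4 rats 2, 3, 4 and 5, and 5, 5 and 2 without control day 4 rats 1, 2 and 5. In mitosis and ATF4 target genes 0 of 25 and 0 of 23 passed for the difference, with medians of 0.23 and 0.35, and up to 2 ATF4 targets passed without 1 array at a time or with the actin ratio as a covariate. Mitosis genes had a median effect of 2.19 on day 8 and 1.96 on day 4.

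**Figure D5:**
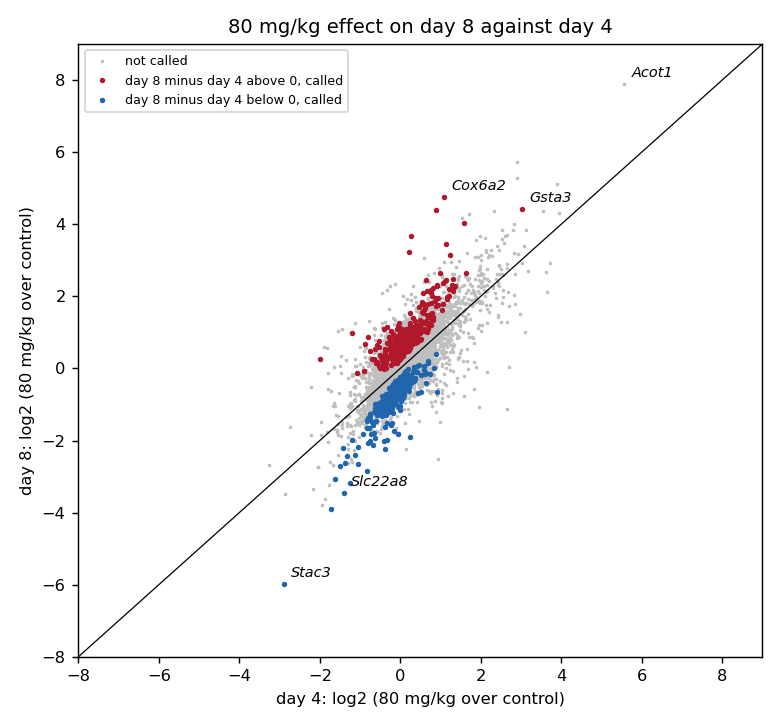
Log2 difference between 80 mg/kg and control on day 8 (vertical) against day 4 (horizontal), a point for each of 10725 genes, with the line of equal effect. Red and blue points are the 338 and 379 genes whose effect was higher or lower on day 8, Stac3 and Cox6a2 among them.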

How the data were processed

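Total RNA of single rat livers was labelled with the 3' IVT Express kit and hybridised to Affymetrix arrays, per the labels' protocols. The deposited table holds 1 signal per probe set and array, made with MAS5 per the submitters' processing notes, whose version is not given in the sources used here. The authors' signals are intensities on a linear scale, deposited after scaling so that the 2% trimmed mean of each array is 99.992. No detection calls were used. After 57 control probe sets were left out, probe sets with 1 gene symbol in the platform annotation (20832 of 31099, of which 20764 matched RefSeq; 436 had several symbols and 9831 none) were kept if above 17.09, the median of all signals, in at least 4 arrays. Each gene was represented by its probe set of highest mean, and 2759 of the 10725 genes had several. Log2 signals were fitted with limma 3.58.1 in R 4.3.3, with a mean for each of 12 groups of dose and day over all 57 arrays, eBayes with a variance trend, and Benjamini-Hochberg adjustment over all genes. The fit was tested on simulated data with few changed genes, as many up as down, and no difference in scale between arrays. That simulation cannot show how the scaling of the arrays bears on the calls. Array quality was compared with exact permutation tests, two-sided.

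Genes named were drawn from the 12 largest rises and falls among genes whose groups do not overlap. Others came from the first member and the largest changes of each gene list, and from the most abundant called genes. The largest differences from 30 mg/kg and from day 4 were also used. Some genes of this choice were left out of the text, first members of lists and largest falls among them. Cars1 and Chac1 were named outside it. The gene lists and members were chosen with earlier results of these data known. Alternatives changed the scaling, the filter, the probe set rule, the offset, the variance trend, array weights, the arrays in the fit, the replicate block and each replicate. A covariate for the actin ratio was added after seeing the data. Promoters are those of RefSeq, GRCr8.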

Additional observations from a re-analysis of the deposited data

Results flagged for a closer look

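In 37 of the 114 genes named, against 6.69% of all genes, the effect of 80 mg/kg differed between day 8 and day 4 (interaction term, limma, adjusted p under 0.05). The named genes were in part chosen for this difference (Stac3, Cox6a2, Inhbb, Nox4 and Slc22a8) or for a large effect on day 8, so that the count does not stand for genes at large. On the log2 scale the effect of day 8 was above that of day 4 for Cox6a2 by 3.66, Inhbb by 3.52, Cyp2c12 by 2.46, Mmp12 by 1.93, Gsta3 by 1.39, Gpnmb by 1.30, Abcc4 by 1.01, Cd68 by 0.69 and Gars1 by 0.51. It was below that of day 4 for Stac3 by -3.09, Nox4 by -2.16, Slc22a8 by -2.07, C6 by -1.86, Obp3 by -1.64, Hao2 by -1.43, Cyp2c11 by -1.33, Hal by -1.31 and Gnmt by -1.29. Smaller differences in the same direction were found for Sult1c3 by -1.25, Inhba by -1.21, Gstm7 by -1.14, Oat by -0.89, Slc10a1 by -0.86, Apom by -0.67, Fabp1 by -0.67, Sdf2l1 by -0.67 and Amacr by -0.65. The remaining genes were Gjb1 by -0.58, C3 by -0.56, Acox2 by -0.55, Cbs by -0.55, Fgg by -0.54, F10 by -0.47, F2 by -0.47, Ghr by -0.42, Hadh by -0.37 and Sdha by -0.34. The number of genes with such a difference depended on the arrays and the scaling, as given in the next part.

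Each of the 114 named genes gave a set of 5 signals at 80 mg/kg and another in control, 228 sets in all. In 15 of them 1 rat stood apart from the others by Dixon's criterion on the log2 signal. Chance meets this criterion in about 1 of 20 independent sets, but these sets came from the same 10 rats and were not independent. Rat 5 at 80 mg/kg stood apart in 4 of the 15, at 7824 for Gc, 1528 for Ghr and 165 for Inhba, each the highest, and at 34.1 for Gucy2c, the lowest. Rat 4 at 80 mg/kg was the lowest for Hao2, at 150.0, and for Nox4, at 0.5. The other rats at 80 mg/kg that stood apart were rat 1 in Hnf4a, at 1851, rat 2 in Col1a1, at 39.4, and rat 3 in Timp1, at 160.0, the first and second of these being low and the third high. Among control rats, rat 4 was high in Amacr, at 4552, and low in Gpx2, at 0.8, and Hmox1, at 63.6. Control rat 3 was high in Mcpt1, at 13.9, and Rpl14, at 1437, and control rat 2 was high in Nqo1, at 489.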

How the results depend on the processing

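The number of genes called on day 8 stayed within 1.5 times its value in every alternative run, but its split did not: a common median gave 1754 higher and 3004 lower. Without 1 array at a time, 5013 to 5382 genes were called against control (3349 to 3588 higher, 1659 to 1794 lower) and 4491 to 4942 against 30 mg/kg. The 717 genes that differed between days became 387 at a common median, 460 with only the groups compared and 312 with the actin ratio as a covariate, which was added after seeing the data. Without 1 array at a time they numbered 315 to 972. They were 315, 476 and 430 without 80 mg/kg day 4 rats 2, 3 and 4, 380 without 80 mg/kg day 8 rat 3, 428 without control day 4 rat 1 and 407 without control day 8 rat 4. The cause was not tested.

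Same-numbered rats of day 8 were not taken as pairs. Their deviations from the group means correlated at 0.02, 0.065, 0.016, -0.08 and -0.039 for numbers 1 to 5. In 0 of 5 cases was the own number the highest. Whether same-numbered rats shared more than the number was not tested. With the replicate block 5392 genes were called against control, 4919 against 30 mg/kg and 430 between days, where 717 were called without it.

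Among named genes, the log2 difference changed sign with quantile normalization in Alb (0.21), C3 (0.016), Cyp7a1 (0.20), Gc (0.07), Hspa5 (0.32), Krt19 (-0.048) and Pecam1 (-0.038), and at a common median in Aars1 (-0.18), Krt19 (-0.049), Nqo1 (-0.11) and Pecam1 (-0.049). Array weights turned Cyp7a1 (0.11) and Hspa5 (0.014), and the actin covariate Hspa5 (0.018). Without 1 array at a time the sign turned in Aars1 (-0.02 and -0.001), Cpa3 (0.12 and 0.15), Cyp7a1 (0.089, 0.048, 0.007 and 0.013), Hspa5 (0.001, 0.009, 0.017, 0.001, 0.023 and 0.008) and Nqo1 (-0.039). Over these fits Cpa3 ran from -0.19 to 0.15, Cyp7a1 from -0.20 to 0.089 and Nqo1 from -0.039 to 0.26. Chac1 turned with the actin covariate (0.16) and without 80 mg/kg rat 4 (0.069), control rat 4 (0.13) or control rat 5 (0.21), and ran from -0.34 to 0.21 without 1 array at a time. Of these, Alb and Hspa5 had not passed, but passed as higher with quantile normalization and as lower at a common median. Gc and C3 had passed, and both lost their call. Calls were also lost in Fgg with quantile normalization (-0.043), in Tars1 under 13 alternatives, in Afp without 80 mg/kg rat 4 (-0.32) and in Hnf4a (-0.22) and Glul (-0.069) with the mean of all probe sets.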

Other observations

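Several other groups were measured on day 8. Of 17 genes of cholesterol synthesis and uptake 5 fell (29.4%, against 16.6% of all genes) and 0 rose, and 9 fell at a common median. Of 36 proteasome subunits 10 rose (27.8%, below the 34.2% of all genes) and 5 fell (13.9%, below the 16.6%), with a median of 0.06. Quantile normalization gave 16 higher and 5 lower, and a common median gave 1 higher and 14 lower with a median of -0.16. Of 72 mitochondrial ribosomal proteins 33 rose (45.8%, against 34.2% of all genes) and 7 fell (9.72%, against 16.6%). The median of 0.13, close to the 0.15 of all genes, turned to -0.09 at a common median, with 13 higher and 25 lower. Circadian clock genes rose in 6 of 15 cases and fell in 3, with 4 higher and 5 lower under quantile normalization, 2 and 6 at a common median, and 3 higher without control rat 1. Of 14 immediate early genes 5 rose (35.7%) and 2 fell (14.3%), near the 34.2% and 16.6% of all genes. At a common median 2 were higher and 3 lower, and 3 were higher without control rat 1. Of 16 genes of iron, zinc and copper handling 4 rose and 5 fell, or 2 and 6 at a common median. Of 16 chemokines and cytokines 5 rose (31.2%, near the 34.2% of all genes) and 1 fell (6.25%). Without control rat 4, 2 were higher, and 7 listed members were below the filter on low signals.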
